A study of Mus musculus with 20 samples.

Results

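The core loop of the circadian clock is described here in bone marrow neutrophils of WT and Bmal1 Mye-/- mice with and without imiquimod (IMQ), a TLR7 agonist applied to the skin to give a lupus-like disease. The members were chosen by name as the 8 genes of the loop, Arntl, Clock, Npas2, Per1, Per2, Per3, Cry1 and Cry2, of 24421 genes listed, and all 8 were among the 14030 genes tested. The 20 RNA-seq libraries fell into 4 groups of 5: both genotypes, each untreated or given IMQ. All mice were female. WT mice were C57BL/6J from a supplier, and Bmal1 Mye-/- mice were bred in house from a floxed Bmal1 (Arntl) line, B6.129S4(Cg)-Bmal1tm1Weit, and a line with Cre at Lyz2, B6.129P2-Lyz2tm1(cre)Ifo, so breeding origin and genotype cannot be told apart. Lyz2-driven Cre acts in myeloid cells, neutrophils among them, and not in most other cells of the marrow. IMQ cream (5%) was put on both ears 3 times per week for 6 weeks, from 8 to 10 weeks of age and at about zeitgeber time (ZT) 11 h, and the age of untreated mice was not given in the sources used here. Marrow was taken between ZT 1 and 4 h in all groups, and neutrophils were enriched by negative magnetic selection. Each group was thus seen in 1 window of the day, so levels could be compared between groups but no rhythm could be measured.

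In the clock of mammalian cells, BMAL1 (the protein of Arntl) pairs with CLOCK, or with its paralog NPAS2, and the pair binds E-box elements to switch on Per and Cry genes. PER and CRY proteins then collect, enter the nucleus and repress the same pair, which closes the loop over about a day. In a secondary loop REV-ERB and ROR proteins act on Arntl through ROR elements, and D-box factors such as DBP act on Per genes. Per1 is in addition an immediate target of glucocorticoid hormone, whose blood level itself follows the day.

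The promoters below are shown because they hold the elements through which the loop is known to act on its repressor genes. Each is the 250 bases before a RefSeq start site (GRCm38.p6), read 5′ to 3′ on the strand of the gene. Capitals mark an E-box (CACGTG), an E'-box (CACGTT or AACGTG) or a D-box (TTATGTAA), each searched on both strands.
Per1, chr11:69098699-69098948, plus strand: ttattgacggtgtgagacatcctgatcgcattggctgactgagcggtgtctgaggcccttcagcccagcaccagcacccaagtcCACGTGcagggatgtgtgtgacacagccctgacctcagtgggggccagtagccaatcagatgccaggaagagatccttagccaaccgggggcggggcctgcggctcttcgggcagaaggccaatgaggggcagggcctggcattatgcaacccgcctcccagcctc
Per3, chr4:151044666-151044915, minus strand: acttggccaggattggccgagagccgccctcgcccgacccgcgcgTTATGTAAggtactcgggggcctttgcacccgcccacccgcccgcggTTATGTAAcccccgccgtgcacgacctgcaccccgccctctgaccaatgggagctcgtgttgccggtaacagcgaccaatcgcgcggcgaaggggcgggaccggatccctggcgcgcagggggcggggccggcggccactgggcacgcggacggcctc
Cry1, chr10:85185055-85185304, minus strand: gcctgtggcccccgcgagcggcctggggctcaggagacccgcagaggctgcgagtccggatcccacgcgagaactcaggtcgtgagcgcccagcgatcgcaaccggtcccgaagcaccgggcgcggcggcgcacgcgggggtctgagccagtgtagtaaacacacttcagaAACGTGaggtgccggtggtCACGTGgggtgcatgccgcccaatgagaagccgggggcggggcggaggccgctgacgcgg
Cry2, chr2:92434070-92434319, minus strand: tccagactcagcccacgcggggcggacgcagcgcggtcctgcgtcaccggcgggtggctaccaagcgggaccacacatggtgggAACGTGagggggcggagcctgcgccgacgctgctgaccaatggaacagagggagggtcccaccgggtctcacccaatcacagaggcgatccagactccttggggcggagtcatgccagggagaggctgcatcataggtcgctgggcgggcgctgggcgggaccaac

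An E-box was present in 7.15% of all 32851 RefSeq promoters of 300 bases (250 before to 50 after the start). An E'-box was in 4.68% and a D-box, here TTATGTAA or TTACGTAA, in 1.06%. Counted by gene over all its start sites, the shares were 8.09%, 5.44% and 1.23%. Per1 and Cry1 held the E-box, at -166 and -60 from the start. The E'-box lay at -79 in Cry1 and at -166 in Cry2. Per3 held 2 copies of the D-box, at -205 and -158. Arntl, Clock and Per1 each had a start site with a ROR core motif (AGGTCA), at -137 in the Per1 promoter shown. This motif was in 16.3% of promoters and, at any start site, in 18.1% of genes. None of the motifs searched was found in the promoter of Npas2. A match of letters is a description and not a site of binding, and 7 of the 8 members had an entry, Per2 being named only.

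The libraries held 30782166 to 92613500 reads on genes (median 66094896). Levels are given as CPM, read counts scaled to a common library total with TMM factors. The summed level of 8 neutrophil markers was 68080 to 142600 CPM over all libraries, and the sum over 6 erythroid markers was 7.98 to 127.5 CPM (2 of them, the globin genes Hba-a1 and Hbb-bs, were listed at 0 in all libraries). IMQ-treated Bmal1 Mye-/- replicate 1 stood apart: its neutrophil sum was the lowest (68080 CPM) and its sum over 7 monocyte and macrophage markers was 1382 CPM, against 134.7 to 513.3 in the other IMQ-treated Bmal1 Mye-/- libraries. IMQ-treated WT replicate 3 had the lowest neutrophil sum of WT (95510 CPM) and a low Lyz2 level. Its sum over 7 neutrophil precursor markers was the highest of WT (2084 CPM). That of IMQ-treated Bmal1 Mye-/- replicate 1 was the highest of all (3073 CPM). IMQ-treated Bmal1 Mye-/- replicate 5, with sums of 99720 and 2028 CPM for neutrophils and precursors, was not set apart. Fold changes of members that rest on IMQ-treated Bmal1 Mye-/- replicate 1 or IMQ-treated WT replicate 3 are given with and without it below. Fewer cells of a type and less RNA per cell cannot be told apart in these bulk libraries. Lyz2, whose locus carries Cre, was 11410 CPM in untreated WT against 135 in untreated Bmal1 Mye-/- neutrophils, and 8059 (2465 to 10630) against 98.4 (58.8 to 127.3) after IMQ. The genotypes did not overlap in either treatment, so that all 20 genotype labels held by this measure.

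Per1, an immediate-early repressor gene of the loop, was the most abundant member per exon length in every group, and Npas2 the least. In untreated WT neutrophils the mean levels, in CPM per kilobase of exon, were 22.8 for Per1, 10.8 for Cry1, 7.01 for Per2, 1.06 for Cry2, 0.340 for Per3, 0.3135 for Clock, 0.179 for Arntl and 0.0311 for Npas2. Between neighbours in this order the libraries of Per1 and Cry1 overlapped, as did those of Per3 and Clock, and all other neighbours were separate. The repressors Per1, Per2 and Cry1 thus lay above every library of the activators Arntl, Clock and Npas2 in all 4 groups. In Bmal1 Mye-/- neutrophils, untreated and IMQ-treated, the ranges of Arntl and Npas2 overlapped.

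**Figure D1:**
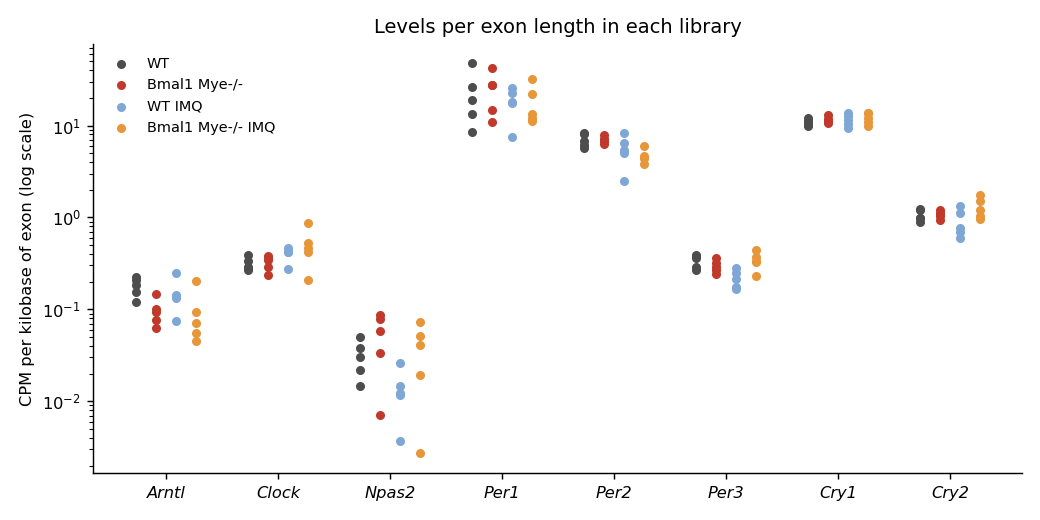
Level of each core clock gene in CPM per kilobase of exon (log scale), 1 point per library and 1 colour per group (5 libraries each). Per1, Cry1 and Per2 sit above 1 CPM per kilobase in every library and Npas2 below 0.1.

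Arntl (chr7:113207465-113314126, mm10), the gene that was deleted, was lower on average in Bmal1 Mye-/- neutrophils, but the groups overlapped and the difference did not pass the test over all genes. In untreated WT neutrophils it was 1.17, 1.56, 1.71, 0.895 and 1.39 CPM (mean 1.35 ± 0.322, SD, n = 5). In untreated Bmal1 Mye-/- neutrophils it was 1.10, 0.572, 0.707, 0.468 and 0.759 CPM (0.721 ± 0.240, SD, n = 5). Of the 5 Bmal1 Mye-/- libraries 4 lay below every WT library, and the other lay between the lowest WT libraries. The log2 fold change was -0.90 ± 0.384 (SE; 95% interval -1.70 to -0.096; edgeR quasi-likelihood test, unadjusted p = 0.0302, adjusted p = 1.0). The files give 1 count per gene, 18 to 140 reads for Arntl, and reads from exons outside the floxed part would still be counted, so the level does not measure the deleted exon.

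After IMQ, Arntl was 0.5615, 1.07, 1.87, 1.00 and 1.04 CPM in WT and 1.52, 0.414, 0.5325, 0.3375 and 0.7105 CPM in Bmal1 Mye-/- neutrophils. The highest Bmal1 Mye-/- value, inside the WT range, was that of replicate 1, the library with the high monocyte and macrophage sum, in which Lyz2 was 85.7 CPM as in the other Bmal1 Mye-/- libraries. The log2 fold change was -0.65 ± 0.384 (SE; edgeR adjusted p = 0.305). Without replicate 1 of the Bmal1 Mye-/- group it was -1.14 (adjusted p = 0.336), and without replicate 3 of the WT group, which had the highest WT value, it was -0.38 (adjusted p = 0.47). IMQ itself changed Arntl by -0.28 ± 0.379 in WT (adjusted p = 0.718) and by -0.030 ± 0.386 in Bmal1 Mye-/- neutrophils (adjusted p = 0.961). Without IMQ-treated Bmal1 Mye-/- replicate 1 the change in Bmal1 Mye-/- neutrophils was -0.52 (edgeR adjusted p = 0.289). Without IMQ-treated WT replicate 3 the change in WT was -0.55 (adjusted p = 0.437).

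**Figure D2:**
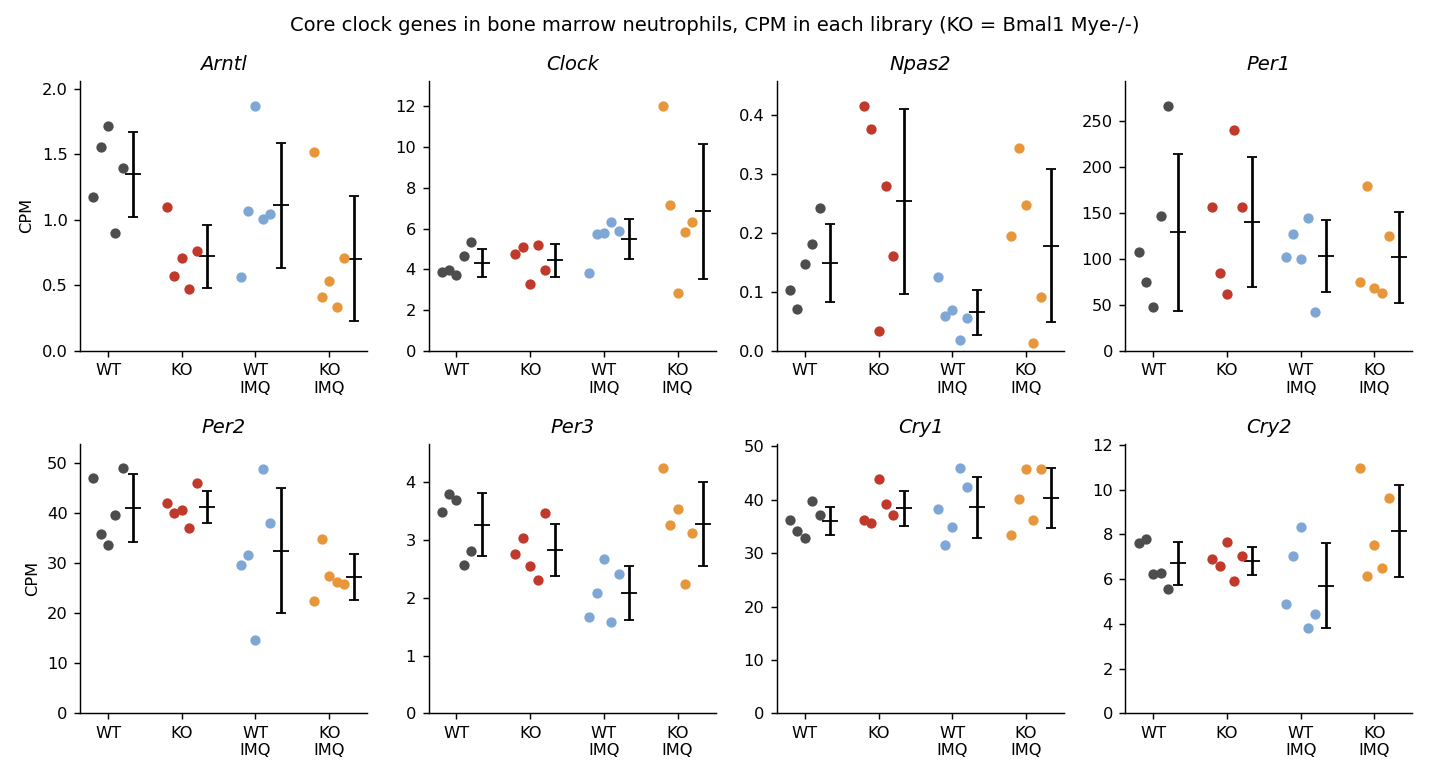
CPM of the 8 core clock genes in each library, with the group mean and SD (bar; n = 5 per group) to the right of its points and a linear axis from 0. IMQ-treated Per2 libraries of Bmal1 Mye-/- mice sit at 22.4 to 34.8 CPM, all below the untreated ones, and Per1 spans 41.8 to 266.3 CPM.

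Clock (chr5:76209868-76304792), the partner of BMAL1, averaged 4.30 ± 0.674 CPM in untreated WT and 4.44 ± 0.816 in untreated Bmal1 Mye-/- neutrophils (SD, n = 5 each). The log2 fold change between the genotypes was 0.048 (95% interval -0.498 to 0.595; edgeR adjusted p = 1.0). After IMQ it was 3.81, 5.71, 5.77, 6.32 and 5.89 CPM in WT and 12.0, 7.17, 2.86, 5.83 and 6.33 CPM in Bmal1 Mye-/- neutrophils. The highest value, in IMQ-treated Bmal1 Mye-/- replicate 1, was again in the library that stood apart. IMQ against untreated gave 0.62 ± 0.262 in Bmal1 Mye-/- neutrophils (SE; adjusted p = 0.0862), and 0.33 without that library (adjusted p = 0.31). Without replicate 3 of that group, which had its lowest value, it was 0.83 and passed (adjusted p = 0.0178), in a fit that called 18.2% of all genes. In WT it gave 0.35 ± 0.261 (adjusted p = 0.454).

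Npas2 (chr1:39193731-39363236), which can take the place of CLOCK, was near the limit of detection, with 1 to 35 reads in a library. Its mean was 0.149 CPM in untreated WT, 0.254 in untreated Bmal1 Mye-/-, 0.0653 in WT after IMQ and 0.179 in Bmal1 Mye-/- neutrophils after IMQ. The log2 fold change between the genotypes was 0.80 ± 0.630 untreated and 1.41 ± 0.693 after IMQ (SE; edgeR adjusted p = 1.0 and 0.255). The interval of the second, -0.042 to 2.86, shows how little these counts can resolve.

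Per1 (chr11:69095217-69109960) differed more between libraries of 1 group than between groups. In untreated WT neutrophils it was 107.5, 75.0, 47.4, 146.6 and 266.3 CPM, and in untreated Bmal1 Mye-/- neutrophils 156.6, 84.0, 61.1, 240.2 and 156.5 CPM. After IMQ it was 102.2, 127.0, 99.7, 144.0 and 41.8 CPM in WT and 74.5, 178.5, 67.7, 63.0 and 124.3 CPM in Bmal1 Mye-/- neutrophils. All 4 groups overlapped. The highest untreated WT library was 5.61 times the lowest. With counts of 1816 to 17568 reads, counting error was small beside this spread.

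The SD of Per1 within groups was 0.779 on the log2 scale, larger than that of 97.7% of the 2150 genes within 2-fold of its level, whose median was 0.223. By the same measure Per2 stood above 78.9% and Cry1 above 32.4% of genes near their levels. The intervals for Per1 were accordingly wide: the log2 fold change between genotypes was 0.12 (95% interval -0.80 to 1.05) untreated and -0.019 (-0.94 to 0.91) after IMQ, where its sign depended on the scaling (0.18 with library totals alone, which moved the median of all genes by 0.196). The time of harvest within ZT 1 to 4 h was not given per library, and its part in the spread was not tested.

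The gene whose level followed that of Per1 most closely was Tsc22d3 (GILZ), a glucocorticoid-induced gene. With group means removed, r was 0.819 over the 20 libraries, the highest of 10859 genes searched, and it was 0.912, 0.917, 0.727 and 0.545 within the 5 libraries of untreated WT, untreated Bmal1 Mye-/-, WT given IMQ and Bmal1 Mye-/- given IMQ. Klf3 (0.80) and Ptp4a1 (0.788) came next. Of the other 9 genes of a glucocorticoid-responsive list, r with Per1 was 0.632 for Ddit4, 0.543 for Dusp1, 0.492 for Klf9 and 0.454 for Fkbp5. It was 0.377 for Errfi1, 0.28 for Sgk1, 0.217 for Il1r2, 0.113 for Zbtb16 and -0.168 for Cebpd, the only negative value. Among the genes searched Ddit4 ranked 19, Fkbp5 193 and Zbtb16 3036. These values describe the likeness of levels that share library and depth, and since Tsc22d3 was picked as the highest of many no test is given.

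**Figure D3:**
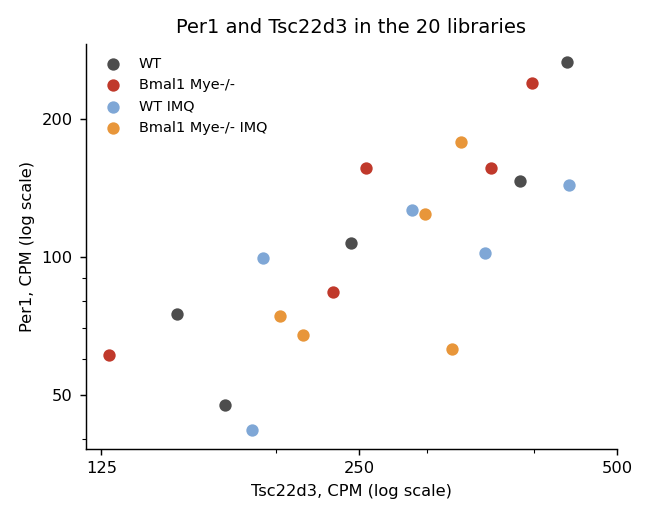
Per1 against Tsc22d3 in the 20 libraries, both in CPM on log scales, coloured by group (5 libraries each). With group means removed r is 0.819, and within the IMQ-treated Bmal1 Mye-/- group, where replicate 4 has 321.3 CPM of Tsc22d3 and the lowest Per1 (63.0 CPM), it is 0.545.

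Per2 (chr1:91415982-91459324) was the 1 member called in any comparison. It was lower after IMQ in Bmal1 Mye-/- neutrophils. Untreated Bmal1 Mye-/- libraries had 42.0, 40.0, 40.8, 37.2 and 46.0 CPM (41.2 ± 3.24, SD, n = 5). IMQ-treated Bmal1 Mye-/- libraries had 22.4, 34.8, 27.5, 26.2 and 25.8 CPM (27.3 ± 4.57, SD, n = 5). The 2 groups did not overlap. The log2 fold change was -0.59 ± 0.211 (SE; 95% interval -1.03 to -0.15; edgeR adjusted p = 0.0488). In this comparison 23.5% of all genes tested were called, 9.04% lower, and 9.31% were lower with no overlap, so that 1 called member of 8, lower and with no overlap, is near the background. At an unadjusted p under 0.05 there were 2 members (Clock and Per2) and 39.3% of all genes.

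The call for Per2 was at the edge of the threshold. It was lost under RLE factors (adjusted p = 0.052), library totals alone (-0.48, 0.0603), no filter on low counts (0.0726) and limma (-0.48, 0.0637). No label pairs the libraries of these groups by replicate number, and a replicate block was run only as an alternative. With the replicate as a block over all 4 groups the log2 fold change was -0.59 with adjusted p = 0.053 (-0.59 and 0.0174 in a fit of only these 2 groups). Per2 was called in 3 of the 20 fits that left out 1 library each, over which the adjusted p ran from 0.00711 to 0.121 (log2 fold change -0.67 to -0.52). Without IMQ-treated Bmal1 Mye-/- replicate 1 it was -0.52 (adjusted p = 0.121), without IMQ-treated WT replicate 3 it was -0.58 (adjusted p = 0.00711), and without both -0.51 (adjusted p = 0.0156).

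In WT neutrophils Per2 was 47.0, 35.9, 33.6, 39.7 and 49.0 CPM untreated and 29.8, 31.6, 14.6, 48.9 and 38.0 CPM after IMQ. The groups overlapped, and the lowest value was that of IMQ-treated WT replicate 3. The log2 fold change was -0.33 ± 0.211 (SE; edgeR adjusted p = 0.372). The difference between the genotypes in the response to IMQ, tested as an interaction, was -0.26 (95% interval -0.881 to 0.364; adjusted p = 0.714), so the response of Per2 was not shown to differ between genotypes. Between genotypes the log2 fold change was 0.0055 (-0.434 to 0.445) untreated and -0.25 (-0.694 to 0.188) after IMQ. Without IMQ-treated WT replicate 3, the difference after IMQ was -0.44 (edgeR adjusted p = 0.0508), in a fit that called 21.9% of all genes. The interaction was then -0.43 (adjusted p = 0.213), and IMQ in WT gave -0.15 (adjusted p = 0.617). Without IMQ-treated Bmal1 Mye-/- replicate 1, the difference after IMQ was -0.18 (adjusted p = 0.772).

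Per3 (chr4:151003652-151044665), the PER paralog whose promoter holds the D-boxes shown above, had opposite fitted directions for IMQ in the genotypes, neither called. In WT it was 3.48, 3.80, 3.69, 2.56 and 2.80 CPM untreated (3.27 ± 0.552) and 1.66, 2.08, 2.68, 1.585 and 2.42 CPM after IMQ (2.08 ± 0.471, SD, n = 5). In Bmal1 Mye-/- neutrophils it was 2.77, 3.04, 2.56, 2.30 and 3.47 CPM untreated (2.83 ± 0.451) and 4.24, 3.265, 3.53, 2.23 and 3.12 CPM after IMQ (3.28 ± 0.727, SD, n = 5). Of the IMQ-treated WT libraries 4 lay below every untreated WT library.

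Between IMQ-treated groups, 4 of 5 Bmal1 Mye-/- libraries lay above every WT library in Per3, with a log2 fold change of 0.65 ± 0.20 (SE; edgeR unadjusted p = 0.00395, adjusted p = 0.176). The effect of IMQ in WT was -0.65 ± 0.199 (adjusted p = 0.0681) and in Bmal1 Mye-/- neutrophils 0.21 ± 0.198 (adjusted p = 0.441). The interaction was 0.86 ± 0.281 (unadjusted p = 0.00634, adjusted p = 0.64). By DESeq2 the first 2 passed (adjusted p = 0.0386 between the IMQ-treated genotypes and 0.00993 for IMQ in WT), where it called 2.22% and 10.5% of all genes. Without IMQ-treated WT replicate 3 the genotype difference was 0.77 (adjusted p = 0.0209), but 21.9% of all genes were then called, against 0.292% with all libraries. Without IMQ-treated Bmal1 Mye-/- replicate 4 it was 0.77 (adjusted p = 0.0496; 1.96% of genes called), without replicate 1 it was 0.55 (adjusted p = 0.503), and without both libraries that stood apart it was 0.68 (adjusted p = 0.0441; 8.89% of genes called). IMQ in WT passed without IMQ-treated WT replicate 5 (-0.71, adjusted p = 0.0334; 13.9% of genes called) and without IMQ-treated Bmal1 Mye-/- replicate 1 (-0.66, adjusted p = 0.0428; 6.69% of genes called).

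Markers of other cells were compared between the same IMQ-treated groups. The sum over 5 eosinophil markers was 34.92 to 186.9 CPM in IMQ-treated Bmal1 Mye-/- libraries and 17.4 to 34.21 in IMQ-treated WT libraries. These ranges met closely without overlap. Of the 5 genes 2 were called higher, where 0.292% of all genes were called, and the median log2 fold change was 2.24. The sum over 7 neutrophil precursor markers was 1015 to 3073 CPM against 476.4 to 2084, with a median log2 fold change of 1.11 and 0 of 7 genes called. For basophil and mast markers the median was 1.58 and for erythroid markers -1.09, with 0 genes called in either list. The part of any of these markers in the values of Per3 and Cry2 was not tested.

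Cry1 (chr10:85131700-85185064), a repressor of the BMAL1-CLOCK pair, was the steadiest member. Its means were 36.0 ± 2.69 CPM in untreated WT, 38.4 ± 3.35 in untreated Bmal1 Mye-/-, 38.6 ± 5.72 in WT after IMQ and 40.3 ± 5.61 in Bmal1 Mye-/- neutrophils after IMQ (SD, n = 5 each). Over all 20 libraries it ran from 31.6 to 45.9 CPM, a 1.45-fold range. The 95% interval of the genotype difference was -0.142 to 0.323 untreated and -0.171 to 0.294 after IMQ on the log2 scale, the narrowest of the members.

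Cry2 (chr2:92403646-92434043), its paralog, averaged 6.70 CPM in untreated WT and 6.82 in untreated Bmal1 Mye-/- neutrophils. After IMQ it was 4.89, 7.01, 8.33, 3.82 and 4.44 CPM in WT and 10.95, 6.14, 7.54, 6.49 and 9.605 CPM in Bmal1 Mye-/- neutrophils. The groups overlapped, with 2 of 5 Bmal1 Mye-/- libraries above every WT library, and the log2 fold change was 0.52 ± 0.204 (SE; edgeR adjusted p = 0.219). Without IMQ-treated WT replicate 3 it was 0.70 (adjusted p = 0.0219) in the fit that called 21.9% of all genes, and without IMQ-treated Bmal1 Mye-/- replicate 1 it was 0.40 (adjusted p = 0.624). Cry2 shares 295 exon bases with an antisense transcript, D930015M05Rik (mean 0.361 CPM), and the strand setting of the counting was not given in the sources used here.

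Between genotypes, 0 of the 8 members were called in untreated mice, where 0.207% of all genes were, and 0 in IMQ-treated mice, where 0.292% were. At an unadjusted p under 0.05 these were 1 and 2 members, against 2.19% and 19.9% of all genes. The median log2 fold change of the members was 0.037 and 0.19, against -0.0039 and 0.034 over all genes. For IMQ in WT 0 members were called against 3.95% of genes, and 1 member (Per3) had an unadjusted p under 0.05, against 22.3% of genes. The interaction called 0 members and 0.0% of genes (0 of 14030 by DESeq2 as well), with 1 member (Per3) and 5.14% of genes at an unadjusted p under 0.05. These edgeR counts are for the model of all 4 groups. With both of the libraries that stood apart left out, an alternative chosen after seeing the data, Per3 was called between the IMQ-treated genotypes (8.89% of all genes called) and for IMQ in WT (6.35%), and Per2 for IMQ in Bmal1 Mye-/- neutrophils (28.8%).

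**Figure D4:**
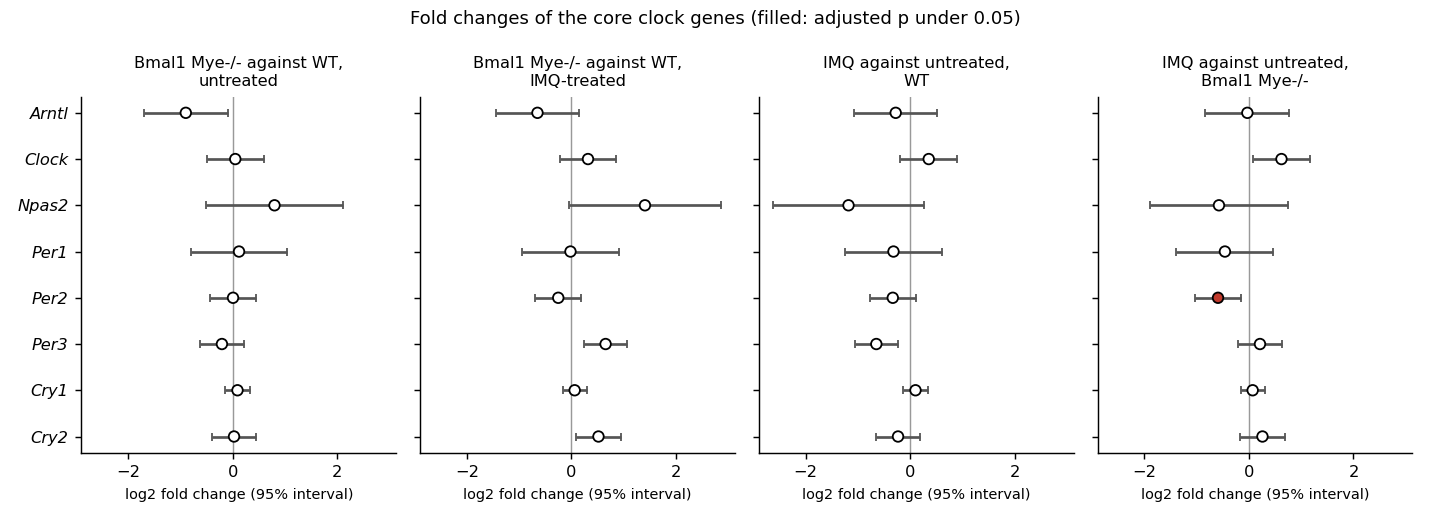
Log2 fold change (points) and 95% interval (bars) of the 8 core clock genes in 4 comparisons from the model of all 20 libraries, filled where the adjusted p is under 0.05. Only Per2 for IMQ against untreated in Bmal1 Mye-/- neutrophils (-0.59) is filled.

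Within groups the members did not rise and fall as 1 set. Of the 28 pairs 14 had a positive r over the 20 libraries once group means were removed, 4 had an unadjusted p under 0.05, and 0 passed the permutation test after Benjamini-Hochberg adjustment. The pairs nearest to it were Arntl with Per3 (r = 0.705), Arntl with Cry2 (0.65) and Per2 with Cry2 (-0.706), each with adjusted permutation p = 0.0724 (unadjusted 0.00291, 0.00776 and 0.00612). Spearman's rho was 0.651, 0.611 and -0.504, with adjusted permutation p = 0.164, 0.166 and 0.284. Without the 2 libraries farthest from the median of the first gene, r was 0.622, 0.583 and -0.44. For the Arntl pairs these were replicate 1 of each IMQ-treated group, and for Per2 with Cry2 replicates 3 and 4 of IMQ-treated WT. Each check thus kept 1 of the 2 libraries that stood apart, and r without both is not given here. In IMQ-treated WT replicate 3 and IMQ-treated Bmal1 Mye-/- replicate 1, the libraries that stood apart, Arntl, Per3 and Cry2 were the highest and Per2 the lowest of their groups. The neutrophil precursor sums of these libraries were also the highest of their groups (2084 and 3073 CPM), and their part in these values was not tested.

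**Figure D5:**
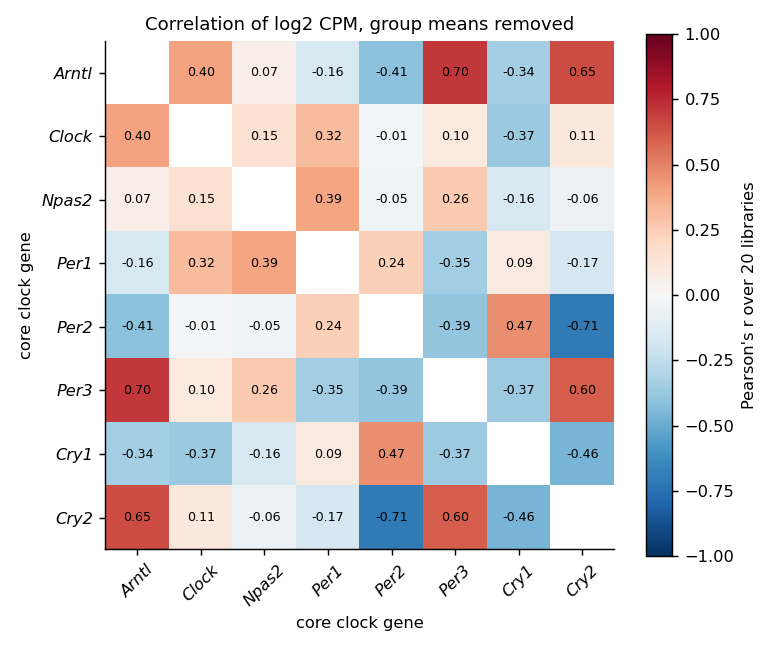
Pearson's r between the log2 CPM of each pair of core clock genes over 20 libraries with group means removed, on a scale from -1 (blue) to 1 (red). Arntl, Per3 and Cry2 are positively related (0.604 to 0.705) and Per2 with Cry2 negatively (-0.706).

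Of 12 other clock genes of the secondary loop and output 11 were tested. Of these 0 were called between genotypes in either treatment (0.207% and 0.292% of all genes), 2 for IMQ in WT (3.95%) and 1 for IMQ in Bmal1 Mye-/- neutrophils (23.5%). At an unadjusted edgeR p under 0.05 there were 7 of the 11 for IMQ in WT (22.3% of all genes). There were 3 for IMQ in Bmal1 Mye-/- neutrophils (39.3%) and 1 between genotypes in each treatment (2.19% and 19.9%). For IMQ, 9 were fitted lower in WT and 8 in Bmal1 Mye-/- neutrophils. The median log2 fold changes were -0.47 and -0.34, against 0.027 and 0.024 over all genes. IMQ lowered Dbp, a D-box activator, in WT neutrophils (log2 fold change -1.01, edgeR adjusted p = 0.0164), and raised Usp2, a deubiquitinase of clock proteins, in both WT (1.04, adjusted p = 0.0424) and Bmal1 Mye-/- neutrophils (1.39, adjusted p = 0.00586). In Bmal1 Mye-/- neutrophils Dbp was -0.54 (adjusted p = 0.0565), and the interaction for Dbp was not called (adjusted p = 0.64). Among 14 regulators and partners of PER and CRY 12 were tested. For IMQ in Bmal1 Mye-/- neutrophils 2 of the 12 were called, not above the 23.5% of all genes, and 0 in the other comparisons. Timeless (1.23, adjusted p = 0.0415) and Tardbp (0.31, adjusted p = 0.0376) rose with IMQ in Bmal1 Mye-/- neutrophils. The sum over 7 neutrophil precursor markers, which include genes of dividing cells, was 1015 to 3073 CPM in those libraries and 557 to 1275 in untreated ones, and its part in the rise of Timeless was not tested. Of the 10 glucocorticoid-responsive genes, 1 was called for IMQ in WT (3.95% of all genes) and 2 in Bmal1 Mye-/- neutrophils (23.5%). Klf9 rose with IMQ in WT (1.77, adjusted p = 0.0479) and Bmal1 Mye-/- neutrophils (1.76, adjusted p = 0.0183). Zbtb16 fell in the latter (-1.94, adjusted p = 0.0108).

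These calls were not equally stable over 11 other settings and 20 fits that left out 1 library each. In Bmal1 Mye-/- neutrophils Usp2 and Zbtb16 were called in all of them. Dbp in WT was called in 10 of the settings and 19 of the fits, and Klf9 in Bmal1 Mye-/- neutrophils likewise in 10 and 19, where the replicate block gave 1.56 with an edgeR adjusted p = 0.0508. Usp2 in WT was called in only 4 settings and 5 fits, and Klf9 in WT in 3 and 4 (largest adjusted p = 0.137 and 0.124). Timeless was called in 10 settings and 14 fits and lost its call without IMQ-treated Bmal1 Mye-/- replicate 1 (adjusted p = 0.102). Tardbp was called in 4 settings and 14 fits, and the replicate block gave 0.31 with an adjusted p = 0.0553. It also lost its call without IMQ-treated Bmal1 Mye-/- replicate 1 (edgeR adjusted p = 0.0978).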

How the data were processed

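Poly(A) RNA-seq of enriched neutrophils gave 20 libraries, 5 per group. The deposited files hold raw counts per gene, made by the authors; the submitters' processing notes list bcl2fastq, STAR 2.7.8a, HTSeq 2.0.1 and mm10, while the paper's methods name TopHat for its own values. The annotation and strand setting were not given in the sources used here. The files place 37.4 to 41.9% of reads on genes and assign 51.9 to 57.8% to no gene. With the strand setting unknown, reads assigned to no gene need not lie outside genes. They and other rows that name no gene were left out. Depth was 30782166 to 92613500 reads on genes, and it limited the precision most for Npas2 and Arntl.

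Genes were filtered with filterByExpr, scaled by TMM (factors 0.854 to 1.38) and tested with edgeR 4.0.16 (R 4.3.3; quasi-likelihood, Benjamini-Hochberg over 14030 genes, threshold 0.05) in 1 model of the 4 groups, after tests on simulated data. Alternatives used DESeq2 1.42.0, limma 3.58.1 on log2(CPM + 0.1), other scalings and filters, a replicate block and left-out libraries. Exon lengths came from GENCODE M21 (GRCm38), and promoters from RefSeq. Correlations used 100000 permutations within groups. The labels number the libraries of a group 1 to 5 without naming animals, so p-values measure the spread between libraries. The same replicate numbers occur in every group. With group means removed, same-numbered libraries correlated at 0.128 to 0.426 between untreated and IMQ-treated Bmal1 Mye-/- groups, above 0.1 in all 5 pairs. Between the WT groups they correlated at 0.0728 to 0.384, and between genotypes at -0.497 to 0.343. No label pairs the libraries, and the main model treated them as unpaired. The values were positive between treatments in both genotypes, so they do not set the Bmal1 Mye-/- groups apart. Libraries of unlike number were not compared, so whether the numbers pair libraries was not tested. The replicate block in the model of the 4 groups spanned all 4. A table of the whole series held the same counts and was not used.

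The members, the lists and the named genes were chosen with earlier results of these data known. Named were all 8 members, the 3 genes most alike to a member, list genes past the threshold, and the glucocorticoid-responsive list for Per1.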

Additional observations from a re-analysis of the deposited data

Results flagged for a closer look

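Clock in IMQ-treated WT neutrophils had 1 library, replicate 1, far below the others: it was 3.81 CPM against 5.71 to 6.32 in the other 4. It was the 1 group flagged of 32 groups checked (8 genes in 4 groups of 5) for a lowest or highest library that lies apart, and chance flags about 1 in 20 groups.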

How the results depend on the processing

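Of the counts of core clock genes called, those between genotypes in untreated mice and for the interaction stayed at 0 in every alternative. Between the IMQ-treated genotypes 1 gene was called by DESeq2 and 1 with IMQ-treated Bmal1 Mye-/- replicate 1 and WT replicate 3 left out together, and 0 to 2 with 1 library left out. For IMQ in WT the counts were 1, 1 and 0 to 1. For IMQ in Bmal1 Mye-/- neutrophils the 1 call became 0 under RLE factors, library totals alone, no filter, the replicate block and limma, and 0 to 1 with 1 library left out (Per2 in 3 fits, Clock in place of Per2 without IMQ-treated Bmal1 Mye-/- replicate 3). The replicate block changed no other call of a member. Library totals alone moved the median of all genes by 0.196 between the IMQ-treated genotypes, by 0.132 for IMQ in Bmal1 Mye-/- neutrophils and by 0.187 for the interaction, and limma by 0.187, 0.081 and 0.172. Signs turned as follows, none of them called. Per1 between IMQ-treated genotypes became 0.18 (library totals), 0.0061 (at least 10 counts in every library), 0.17 (limma) and 0.087 (both libraries left out). The interaction of Per1 became 0.024 (library totals), that of Per2 0.0021 (limma) and that of Cry1 0.16 (library totals), 0.16 (limma) and 0.035 (both left out). Per2 became -0.0091 untreated (no filter) and 0.031 IMQ-treated (limma) between genotypes, and Arntl 0.20 for IMQ in Bmal1 Mye-/- neutrophils (library totals). With 1 library left out, further signs turned, within these ranges. Between untreated genotypes the ranges were -0.019 to 0.12 for Clock, -0.17 to 0.55 for Per1, -0.074 to 0.061 for Per2 and -0.0497 to 0.079 for Cry2. Between IMQ-treated genotypes Per1 ran from -0.31 to 0.15. The interaction ran from -0.23 to 0.53 for Arntl, -0.019 to 0.48 for Clock, -0.57 to 0.15 for Per1 and -0.079 to 0.074 for Cry1. For IMQ, Per1 in WT ran from -0.54 to 0.12 and Arntl in Bmal1 Mye-/- neutrophils from -0.52 to 0.18. Depth limits Npas2 and Arntl most.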
